A study of Sus scrofa with 40 samples.

Results

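The mitochondrial chromosome of the pig carries 13 protein-coding genes in the deposited count table, out of 21280 genes in all, and these 13 were followed through 4 meat cuts. They are the rows whose chromosome is given as MT. All 13 are protein-coding, and the ribosomal and transfer RNA genes of this chromosome were not analysed here. RNA sequencing was done on male Chalu black pigs, a pork breed, that had 1 sire and were raised together and slaughtered after a fast. There were 10 libraries of pork belly (PB), 10 of hamstring muscle from the hind leg (HM), 10 of trapezius muscle from the shoulder (TM) and 10 of longissimus dorsi muscle from the back (LDM), 40 in all. No age is stated for the animals, and no group was treated. Muscle was taken soon after death from left carcass sides, kept clear of fascia, and gave RNA by the Trizol method for a stranded KAPA library kit. The labels name no control cut, so each pair of cuts, 6 in all, is compared as it stands, and the cut named first is the one on top of each log2 change.

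Mitochondrial DNA encodes core subunits of the respiratory chain, and most of the other subunits are nuclear genes imported as proteins. The mitochondrial genes are transcribed together as long precursors from each strand, which are cut at the transfer RNAs between the genes, so that the level of a single messenger also depends on its processing and turnover. Slow oxidative muscle fibres are known to hold more mitochondria than fast glycolytic ones.

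Of the 13 genes, 7 encode subunits of complex I, the NADH dehydrogenase that passes electrons into the chain (ND1, ND2, ND3, ND4, ND4L, ND5 and ND6). Complex III, which passes electrons on to cytochrome c, has 1 (CYTB), complex IV, the cytochrome c oxidase, has 3 (COX1, COX2 and COX3), and complex V, the ATP synthase, has 2 (ATP6 and ATP8). In the deposited annotation on build Sscrofa11.1, 12 lie on the plus strand and ND6 alone on the minus strand. From the low end of the chromosome they run ND1 (MT:3922-4876), ND2 (MT:5087-6128), COX1 (MT:6511-8055), COX2 (MT:8203-8890), ATP8 (MT:8959-9162), ATP6 (MT:9120-9800), COX3 (MT:9800-10583), ND3 (MT:10653-10998), ND4L (MT:11069-11365), ND4 (MT:11359-12736), ND5 (MT:12935-14755), ND6 (MT:14739-15266) and CYTB (MT:15342-16481). These mitochondrial genes hold no introns, so each span is exonic. Some neighbours overlap: ATP8 shares 43 of its 204 bases with ATP6, ND5 and ND6 share 17 on opposite strands, ND4L and ND4 share 7, and ATP6 and COX3 share 1. No source used here states whether the counting kept to 1 strand. Reads of ND6 and reads of RNA antisense to it may therefore be mixed, and the same holds for the overlaps and for nuclear copies of mitochondrial sequence.

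Libraries held between 12305913 and 17735722 counts, and 1 count was worth 0.0813 CPM (counts per 1e6 of a library's total) in the shallowest. At this depth 12 of the 13 genes had between 268 and 698126 counts in every library. ATP8 had 2 counts over all 40 libraries, 1 in PB9 and 1 in HM6, and was at 0 in the other 38, where a count of 0 allows up to 0.244 CPM in the shallowest library. ATP6, which shares 43 bases with ATP8, had at least 17931 counts in every library. How reads in shared bases were counted is not stated. The bound of 0.244 CPM is therefore one on counted reads and may not hold for ATP8 RNA. ATP8 did not pass the filter on low counts and has no test. Summed skeletal muscle markers ran from 99400 to 165806 CPM over the 40 libraries, so each cut read as muscle. The library PB1 is titled and described as belly but its other fields give the longissimus as its tissue, and it was kept in PB by its title. Its share of mitochondrial counts was 11.95% (exact 95% interval 11.93% to 11.97%), inside the PB range given below and above every LDM library. This share is among the values compared below and was not used to place PB1. HM9 and TM7 lay nearest to the LDM mean over the genes that differ among cuts. The labels do not say that the libraries of a cut come from separate animals or that a number marks a pig, so p-values measure the spread between libraries, which may be partly technical.

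The mitochondrial messengers took a larger part of the belly libraries than of any other cut. Their summed share of all counts was 9.31% at the lowest (PB8), 12.7% at the median and 16.2% at the highest (PB9) in PB. It was 6.51% (HM9), 9.84% and 10.6% (HM10) in HM, 5.37% (TM4), 7.54% and 11.5% (TM6) in TM, and 3.63% (LDM3), 5.20% and 6.05% (LDM7) in LDM. Every PB library and every HM library lay above every LDM library, while 8 of the 10 TM libraries did. The shares averaged 12.5% ± 1.96 in PB, 9.12% ± 1.53 in HM, 7.53% ± 1.80 in TM and 4.97% ± 0.827 in LDM (SD, n = 10 each). PB was thus 2.51 times LDM, HM 1.84 times and TM 1.52 times. PB was 1.37 times HM and 1.66 times TM, with 8 PB libraries above all HM libraries and 8 above all TM libraries. HM was 1.21 times TM, and no HM library lay above all TM libraries. In bulk tissue, more fibres of one kind and more RNA per fibre cannot be told apart. The exact 95% binomial interval of a single library's share was at most 0.0387 percentage points wide, which covers counting error only. No test was made on the sum.

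**Figure D1:**
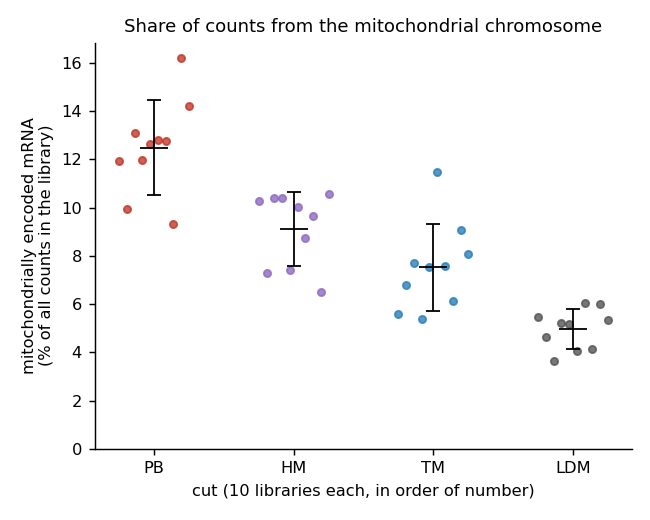
Share of all counts that came from the 13 mitochondrially encoded genes, in percent (vertical axis), for the 10 libraries of each cut (horizontal axis, in order of library number); each point is a library, and lines are the mean ± SD. PB libraries lie between 9.31% and 16.2% and LDM libraries between 3.63% and 6.05%, and the HM and TM means lie between theirs. At the edges the ranges meet: 6 HM libraries and TM6 lie above the lowest PB library, and TM1 and TM4 lie within the LDM range.

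Gene by gene, levels were compared with edgeR's quasi-likelihood test over 11713 genes, with Benjamini-Hochberg adjusted p-values and a threshold of 0.05, after scaling of the libraries to one another by the TMM method. All 12 tested genes differed among the 4 cuts, as did 57.2% of all genes tested. In PB over LDM all 12 were higher and none was lower, against 20.5% of all genes called higher, and the median log2 change was 2.21, beside -0.02 over all genes. For 11 of the 12 (all but COX1) each PB library lay above each LDM library in CPM, which held for 2.32% of all genes. In HM over LDM all 12 were higher, against 16.5% of all genes, with a median of 1.10 beside 0.08. For 4 genes (ND2, COX2, ATP6 and ND6) each HM library lay above each LDM library, which held for 0.324% of all genes. In TM over LDM 11 were higher, against 11.3% of all genes, with a median of 0.65 beside 0.04. For none of them did each TM library lie above each LDM library in CPM, which held for 0.888% of all genes. ND1 was the 1 that did not pass there (log2 change 0.43 ± 0.17 with its SE, adjusted p = 0.054), and errors of log2 changes below are SEs too. It passed in 5 of 10 alternative settings, with adjusted p from 0.0286 to 0.0668 over the 10.

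Belly also stood above hamstring and trapezius for most of the genes. In PB over HM 10 were higher, against 13.5% of all genes, with a median log2 change of 1.18 beside -0.05. COX1 and COX3 did not pass. For ND2, COX2, ATP6 and ND4 each PB library lay above each HM library, which held for 1.43% of all genes. In PB over TM 11 were higher, against 13.4% of all genes, with a median of 1.58 beside -0.06. COX1 did not pass. For ND1, ND2, ATP6, ND4 and ND5 each PB library lay above each TM library, which held for 0.589% of all genes. In HM over TM none passed, against 0.359% of all genes called higher. For none did each HM library lie above each TM library in CPM, which held for 0.0683% of all genes. The 12 log2 changes there were all above 0, from 0.25 to 0.84, 11 of them had an unadjusted p under 0.05, and adjusted p-values ran from 0.105 to 0.494. DESeq2 called 2 of the 12 higher in HM over TM (COX3 and CYTB) and limma-voom 7. The 3 pairs that share LDM and the 3 that share PB rest on the same libraries, so their values stand side by side and are not separate support. Leaving out PB1 changed no count of called genes. Leaving out HM9 and TM7 changed 1, to 12 genes higher in TM over LDM.

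**Figure D2:**
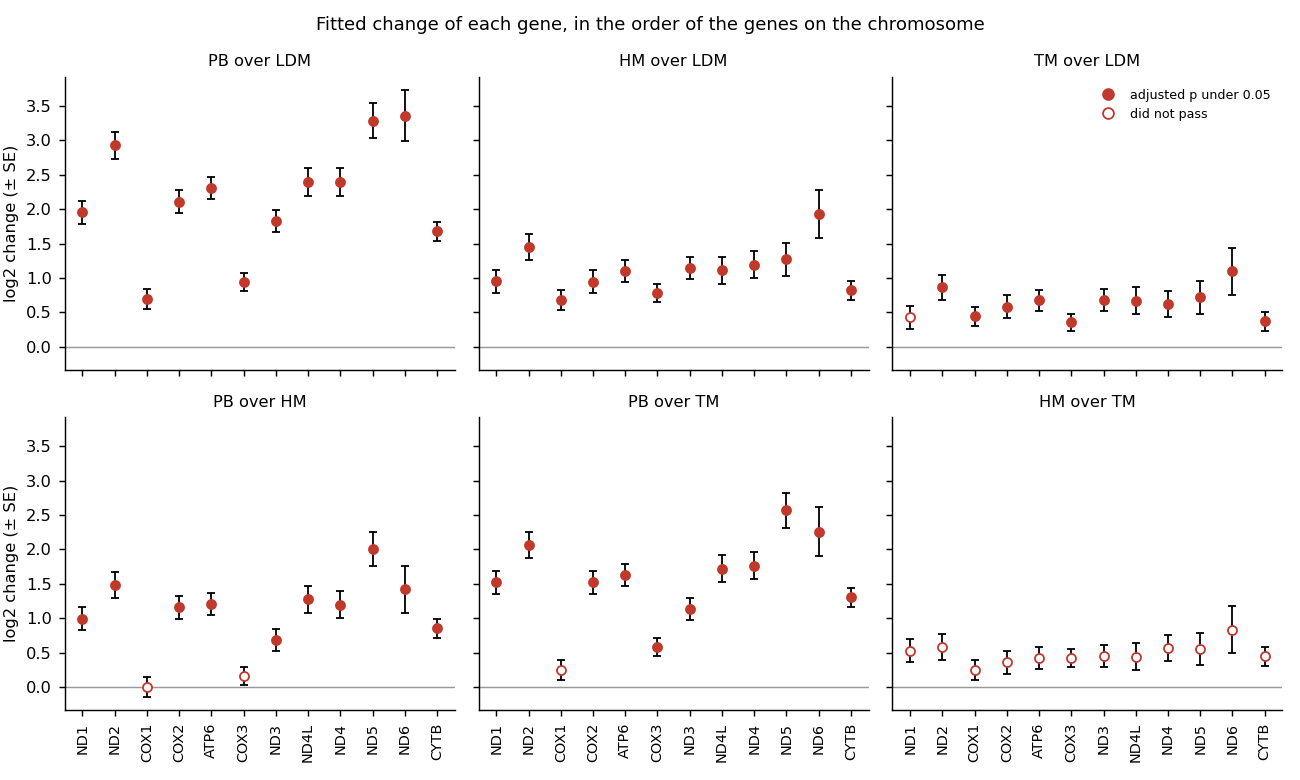
Fitted log2 change (vertical axis, ± SE) of each of the 12 tested genes, in their order on the chromosome (horizontal axis), in the 6 pairs of cuts; filled points passed an adjusted p of 0.05 and open points did not. In the belly pairs COX1 and COX3 lie below their neighbours, at 0.69 and 0.94 in PB over LDM and at 0.00 and 0.16 in PB over HM. They also do so without belly, at 0.69 and 0.78 in HM over LDM and at 0.44 and 0.36 in TM over LDM.

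The 3 widest log2 changes between belly and back were those of the complex I genes ND6, ND5 and ND2, whereas ND1 and ND3 of the same complex lay below ATP6 and COX2. ND5, a membrane-arm subunit of the proton pump, had 3626 CPM at the lowest (PB1), 8723 at the median and 18706 at the highest (PB9) in PB. In HM it had 1655, 3142 and 3716 CPM, in TM 1155, 1965 and 3043 CPM, and in LDM 581, 1152 and 1898 CPM. The lowest PB library was above the highest TM and LDM libraries, and 9 of 10 PB libraries were above all HM libraries. The log2 change of ND5 was 3.28 ± 0.26 in PB over LDM (edgeR adjusted p = 1.7e-12), 2.57 ± 0.25 in PB over TM (adjusted p = 1.3e-09) and 2.01 ± 0.25 in PB over HM (adjusted p = 1.26e-07). Without PB1, whose tissue fields disagree with its title and which was lowest for ND5, these were 3.39, 2.67 and 2.12. HM over LDM was 1.27 ± 0.24 (adjusted p = 0.00012).

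ND6, the complex I subunit read from the opposite strand, spread the most within belly for its mean. It had 179 CPM (PB1), 547 and 1860 CPM (PB10) at the lowest, median and highest in PB. In HM it had 170, 345 and 434 CPM, in TM 43.8, 183 and 290 CPM, and in LDM 39.3, 84.4 and 116 CPM. The PB and HM ranges overlapped widely, and neither reached down to LDM. ND6 changed by 3.36 ± 0.37 in PB over LDM (edgeR adjusted p = 6.72e-09) and by 1.93 ± 0.35 in HM over LDM (adjusted p = 7.26e-05). In PB over HM it was 1.42 ± 0.34 (adjusted p = 0.00178), a call that limma-voom did not make (0.72, adjusted p = 0.104).

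ND2, which also belongs to the membrane arm, had no overlap between PB and any other cut. It had 3657 (PB4), 5210 and 7877 CPM (PB9) in PB, against 1462, 2354 and 2708 CPM in HM, 867, 1494 and 2814 CPM in TM, and 391, 847 and 1096 CPM in LDM. Its log2 change was 2.93 ± 0.20 in PB over LDM (edgeR adjusted p = 7.52e-14), 2.06 ± 0.19 in PB over TM and 1.48 ± 0.19 in PB over HM. It was the widest change after ND6 in HM over LDM, at 1.45 ± 0.19 (adjusted p = 1.08e-06), and in TM over LDM, at 0.86 ± 0.19 (adjusted p = 0.000654).

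ND4, the complex I messenger with the highest level per length in each cut, averaged 16904 ± 3587 CPM in PB, 8145 ± 1929 CPM in HM, 5841 ± 1986 CPM in TM and 3490 ± 1113 CPM in LDM (SD, n = 10 each). All 10 PB libraries lay above every library of the other cuts, with 12595 CPM at the lowest (PB2) against 10835 CPM at the highest outside belly (HM4). Its log2 change was 2.39 ± 0.20 in PB over LDM and 1.20 ± 0.20 in PB over HM. ND4L, whose end overlaps the start of ND4 and which is known to share a messenger with it, changed by the same 2.39 ± 0.20 in PB over LDM and by 1.28 ± 0.20 in PB over HM. It averaged 178 ± 46.1 CPM in PB, 79.8 ± 19.0 in HM, 63.3 ± 20.1 in TM and 36.8 ± 13.4 in LDM.

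ND1, the subunit at the junction of the 2 arms of complex I, had 2627, 4003 and 5225 CPM at the lowest, median and highest in PB, 1350, 2188 and 2940 CPM in HM, 959, 1561 and 2413 CPM in TM, and 691, 1096 and 1607 CPM in LDM. PB lay wholly above TM and LDM and met HM only at its lowest library (PB2). It changed by 1.95 ± 0.17 in PB over LDM and by 0.95 ± 0.17 in HM over LDM. ND3, a small membrane subunit, changed by 1.82 ± 0.16 in PB over LDM, by 1.14 ± 0.16 in HM over LDM and by 0.69 ± 0.16 in TM over LDM. Of the complex I genes it had the smallest difference between PB and HM, 0.68 ± 0.16 (edgeR adjusted p = 0.0013).

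**Figure D3:**
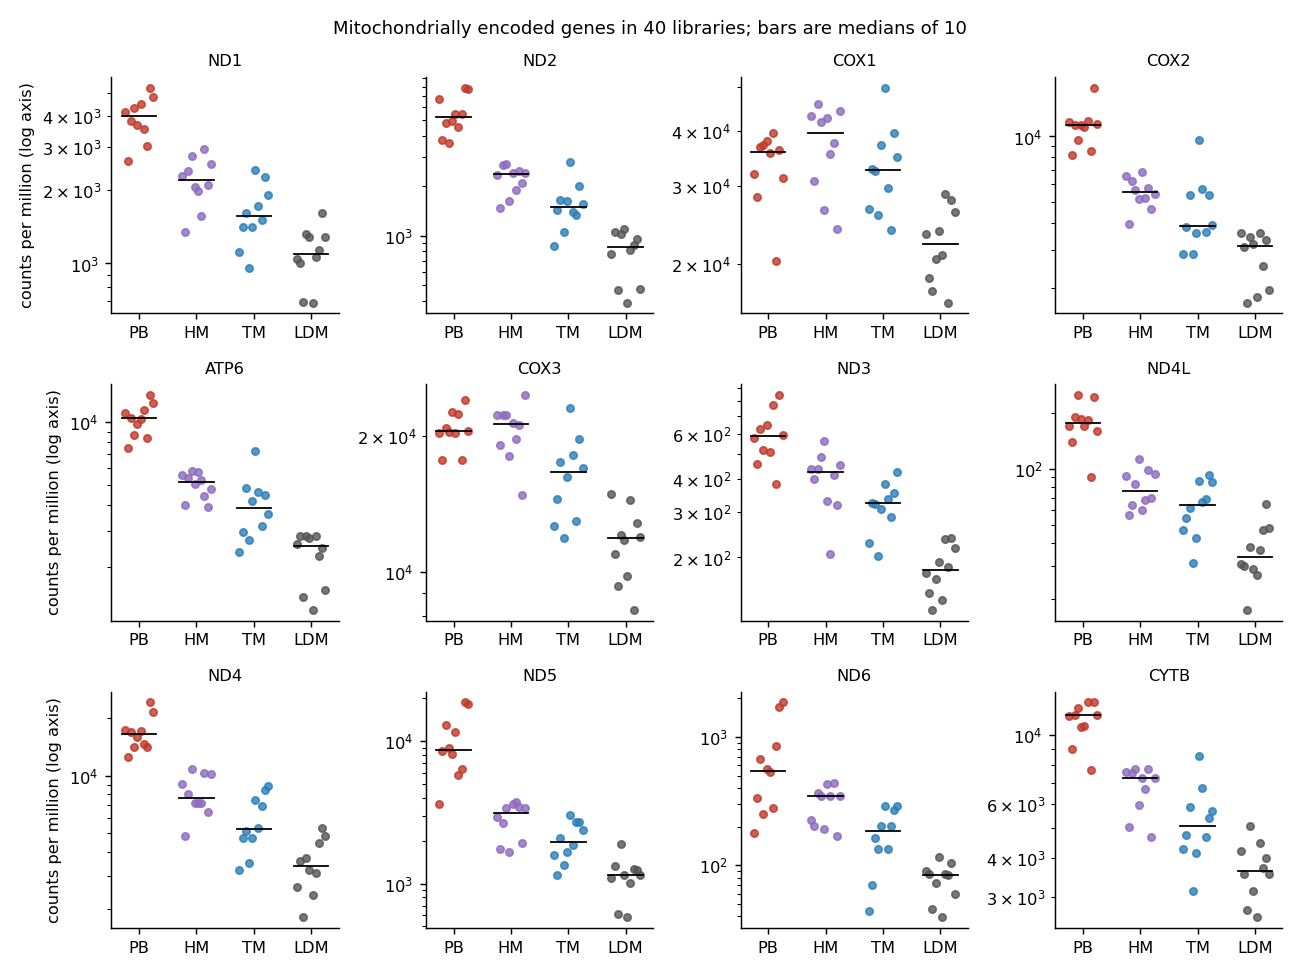
Levels in CPM (vertical axes, log scale, each panel with its own range) of the 12 tested mitochondrially encoded genes in the 10 libraries of each cut (horizontal axis); each point is a library and bars are medians. PB lies above LDM without overlap for all but COX1, whereas the PB and HM points of COX1 and COX3 overlap. For COX1 the median is 39560 CPM in HM and 35882 CPM in PB.

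CYTB, the cytochrome b of complex III, had 7692 (PB8), 11576 and 12728 CPM (PB7) in PB. In HM it had 4688, 7270 and 7762 CPM, in TM 3147, 5077 and 8575 CPM, and in LDM 2582, 3640 and 5088 CPM. PB8 alone of the PB libraries reached into the HM and TM ranges. CYTB was higher by 1.68 ± 0.14 in PB over LDM (edgeR adjusted p = 1.07e-11), 1.30 ± 0.14 in PB over TM, 0.85 ± 0.14 in PB over HM and 0.82 ± 0.14 in HM over LDM. In TM over LDM it was 0.37 ± 0.14 (adjusted p = 0.0422), and this call was lost when any of 13 single libraries was left out, with adjusted p up to 0.105, and in 3 of 10 alternative settings.

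The 3 complex IV genes differed among themselves between belly and hamstring. COX1, the catalytic subunit with the copper and heme centre, had 20379 (PB8), 35882 and 39576 CPM (PB7) in PB, against 23995, 39560 and 45896 CPM in HM, 23874, 32586 and 49884 CPM in TM, and 16400, 22224 and 28780 CPM in LDM. Its PB, HM and TM ranges overlapped. CPM values are set to library totals and log2 changes to TMM-scaled ones, so the PB and HM medians can differ where the fitted change is near 0. The log2 change was 0.69 ± 0.14 in PB over LDM (edgeR adjusted p = 0.000228) and likewise 0.69 ± 0.14 in HM over LDM (adjusted p = 0.000423). In PB over HM it was 0.00 ± 0.14 (adjusted p = 0.985), and its sign was not stable: it was -0.01 with upper-quartile scaling and -0.09 with limma-voom, and 0.09 when the mitochondrial genes were taken out before scaling. In PB over TM it was 0.25 ± 0.14 (adjusted p = 0.211).

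COX3, a core subunit beside COX1, had 17688 (PB8), 20474 and 24044 CPM (PB9) in PB, against 14770, 21270 and 24615 CPM in HM, 11906, 16636 and 23098 CPM in TM, and 8249, 11868 and 14915 CPM in LDM. PB lay above LDM without overlap, and its range fell inside that of HM. The log2 change was 0.94 ± 0.13 in PB over LDM (edgeR adjusted p = 3.39e-07), 0.59 ± 0.13 in PB over TM (adjusted p = 0.000765) and 0.16 ± 0.13 in PB over HM (adjusted p = 0.351). In TM over LDM it was 0.36 ± 0.13 (adjusted p = 0.0329), with adjusted p up to 0.0876 when 1 library was left out.

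COX2, the subunit that takes electrons from cytochrome c, passed in PB over HM, where COX1 and COX3 did not. It had 8249 (PB2), 11247 and 16769 CPM (PB9) in PB, against 3947, 5558 and 6857 CPM in HM, 2854, 3845 and 9591 CPM (TM6) in TM, and 1705, 3127 and 3595 CPM in LDM. PB was above HM and LDM without overlap, and above TM but for TM6. In log2 terms COX2 was higher by 2.11 ± 0.17 in PB over LDM (edgeR adjusted p = 2.62e-12), 1.52 ± 0.17 in PB over TM and 1.16 ± 0.16 in PB over HM (adjusted p = 1.78e-06).

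ATP6, the proton channel subunit of the ATP synthase, had 7484 (PB2), 10427 and 13520 CPM (PB9) in PB. In HM it had 3903, 5147 and 5824 CPM, in TM 2360, 3874 and 7258 CPM (TM6), and in LDM 1241, 2521 and 2839 CPM. Every PB library was above every library of the other 3 cuts. The log2 change was 2.30 ± 0.16 in PB over LDM (edgeR adjusted p = 1.7e-13), 1.63 ± 0.16 in PB over TM, 1.21 ± 0.16 in PB over HM and 1.10 ± 0.16 in HM over LDM. ATP6 and COX2 lie between COX1 and COX3 on the chromosome, so the small differences of COX1 and COX3 between PB and HM stood on either side of larger ones. On the chromosome as a whole the changes followed no single slope: in PB over LDM they were 1.95 at ND1, 0.69 at COX1, 2.30 at ATP6, 0.94 at COX3, 3.28 at ND5 and 1.68 at CYTB.

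Single libraries tended to be high or low for many of the genes at once. PB9 was the highest PB library for 8 of the 12 genes and TM6 the highest TM library for 9 of the 12. PB8 was lowest in PB for 5, TM4 lowest in TM for 6, and LDM6 lowest in LDM for 6. In HM the lowest library was HM2 for 5 genes and HM9 for another 5. PB8 also had the highest sum of the 6 leukocyte markers, all of them detected, which ran from 22.3 to 142 CPM in PB, 21.3 to 83.0 CPM in HM, 16.7 to 83.9 CPM in TM and 14.6 to 56.1 CPM in LDM. HM6 had the highest sum of the 5 smooth muscle and pericyte markers, all detected, which ran from 173 to 572 CPM in PB, 505 to 7428 CPM in HM, 426 to 1698 CPM in TM and 330 to 653 CPM in LDM. Schwann cell markers (5, all detected) summed to 26.3 to 82.3 CPM in PB, 27.9 to 246 CPM in HM, 33.0 to 269 CPM in TM and 72.5 to 188 CPM in LDM, with medians of 48.4 CPM in PB and 144 CPM in LDM. Endothelial markers (6, all detected) ran from 244 to 499 CPM in PB, 353 to 1080 CPM in HM, 342 to 828 CPM in TM and 295 to 410 CPM in LDM, and were thus higher at the median in HM (618 CPM) and TM (557 CPM) than in PB (338 CPM) and LDM (346 CPM). Adipocyte markers (6, all detected) ran from 118 to 591 CPM in PB, 109 to 504 CPM in HM, 239 to 801 CPM in TM and 119.9 to 313 CPM in LDM. Fibroblast and matrix markers (6, all detected) ran from 169.9 to 3052 CPM in PB, with PB1 at the top, 551 to 3699 CPM in HM, 826 to 1982 CPM in TM and 445 to 1193 CPM in LDM. The part of any of these cells in the mitochondrial values was not tested.

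Expressed as a part of the mitochondrial counts alone, the belly libraries were made up differently. This measure does not depend on the scaling between libraries, but the parts sum to a fixed total, so a lower part of one gene raises the others. COX1 took 26.9% ± 3.61 of the mitochondrial counts in PB, 40.5% ± 2.67 in HM, 44.4% ± 3.80 in TM and 45.1% ± 4.27 in LDM (SD, n = 10 each). The highest PB library (31.0%, PB7) lay below the lowest of all other libraries (35.8%, HM5). COX3 took 16.7% ± 1.44 in PB, 22.7% ± 1.56 in HM, 21.9% ± 1.08 in TM and 23.4% ± 2.06 in LDM, with the highest PB library at 19.0% and the lowest of the others at 20.02%. Together COX1 and COX3 made up 43.7% of the mitochondrial counts in PB, 63.2% in HM, 66.3% in TM and 68.6% in LDM. The exact 95% interval of such a part in a single library was at most 0.262 percentage points wide.

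As a sum, the complex I messengers took a larger part in belly, but not each of them alike. Together they came to 30.3% ± 4.64 of the mitochondrial counts in PB, 17.7% ± 2.18 in HM, 15.4% ± 2.95 in TM and 13.7% ± 3.14 in LDM. ND3 hardly differed between PB (0.472%) and HM (0.454%), and its ranges overlapped. ND4 took 13.5% ± 1.39 in PB, 8.91% ± 1.39 in HM, 7.74% ± 2.05 in TM and 7.03% ± 2.03 in LDM, and its lowest PB library (11.6%, PB7) was above its highest library elsewhere (11.4%, TM8). ND5 took 8.02% ± 3.02 in PB, from 3.03% in PB1 to 12.8% in PB10, against 3.10% ± 0.625 in HM, 2.74% ± 0.699 in TM and 2.28% ± 0.697 in LDM. ATP6 of complex V took 8.30% ± 0.698 in PB, 5.53% ± 0.692 in HM, 5.23% ± 0.792 in TM and 4.58% ± 1.07 in LDM, and no PB library reached into another cut. CYTB took 8.87% ± 0.813 in PB, 7.40% ± 0.396 in HM, 7.06% ± 1.02 in TM and 7.48% ± 1.17 in LDM.

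**Figure D4:**
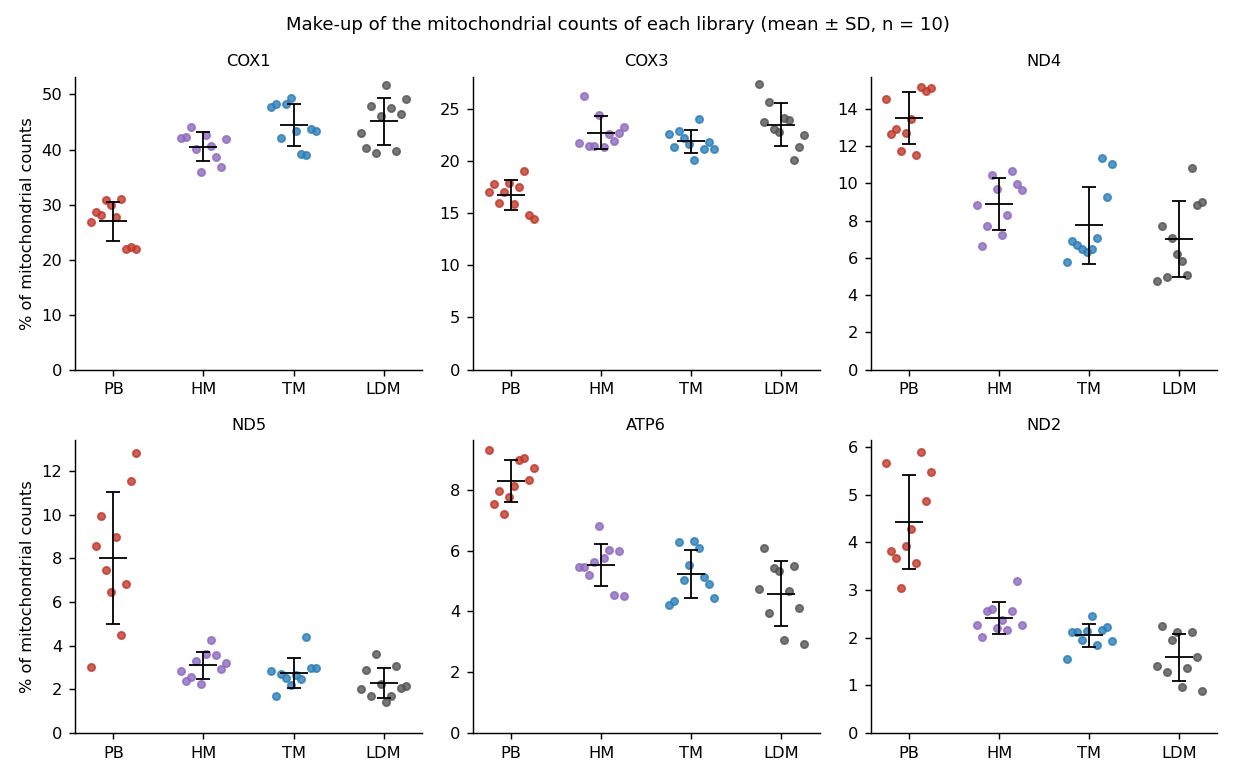
Part of the mitochondrial counts of a library, in percent (vertical axes, from 0), taken by COX1, COX3, ND4, ND5, ATP6 and ND2 in the 10 libraries of each cut (horizontal axis); points are libraries, and lines are the mean ± SD. PB is lowest for COX1 (26.9%) and COX3 (16.7%) and highest for the other 4, with ND5 the most scattered (3.03% to 12.8%).

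With COX1 and COX3 set aside, the parts of ND4 and ATP6 were closer between the cuts and that of CYTB stood further apart. ND4 then took 23.9% ± 1.16 in PB, 24.1% ± 2.63 in HM, 22.8% ± 4.49 in TM and 22.3% ± 5.07 in LDM, and ATP6 took 14.8% ± 1.32 in PB, 15.1% ± 1.80 in HM, 15.6% ± 2.24 in TM and 14.5% ± 2.21 in LDM. The ranges of both genes overlapped among all 4 cuts. ND5 still took more in PB, 14.1% ± 4.59, against 8.43% ± 1.66 in HM, 8.08% ± 1.52 in TM and 7.14% ± 1.16 in LDM, but with PB1 at 5.39%, below the lowest library of any other cut. CYTB took less in PB, 15.9% ± 2.44, against 20.2% ± 1.09 in HM, 21.0% ± 2.63 in TM and 24.0% ± 2.91 in LDM. At the mean, ND1 and ND3 of complex I also took less in PB, with overlapping ranges. ND1 took 5.64% in PB, 6.55% in HM, 6.39% in TM and 7.12% in LDM. ND3 took 0.845% in PB, 1.24% in HM, 1.27% in TM and 1.18% in LDM. Set against all counts of a library, COX1 and COX3 together held 5.42% ± 0.742 in PB and 5.78% ± 1.04 in HM, whereas the other mitochondrial genes held 7.07% ± 1.51 in PB and 3.35% ± 0.554 in HM.

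Per length, in the authors' FPKM (fragments scaled to gene length and library total), the order of the genes was much alike in the cuts. COX3 averaged 26384 ± 2550 FPKM in PB, 26220 ± 3531 in HM, 20888 ± 4467 in TM and 14835 ± 2728 in LDM. COX1 followed with 21677 ± 3711 in PB, 24079 ± 5036 in HM and 14517 ± 2809 in LDM, and led in TM with 21529 ± 4982; the 2 lay within 1 SD of each other in HM, TM and LDM. COX2 and ATP6 came next in every cut, at 16216 ± 3419 and 15229 ± 2731 in PB and at 4094 ± 1096 and 3347 ± 927 in LDM, again within 1 SD of each other. ND4 stood above CYTB in PB (12267 ± 2603 and 9682 ± 1419) and slightly below it in LDM (2532 ± 808 and 3250 ± 684). ND5 and ND2 stood above ND1 in PB, and ND1 above both in the other 3 cuts. ND3, ND6 and ND4L had the lowest levels per length of the 12 in each cut, with ND4L at 598 ± 155 FPKM in PB and 124 ± 45.1 FPKM in LDM. ND4, which is known to share a messenger with ND4L, stood at 12267 FPKM in PB. The FPKM of short or overlapping genes may thus not give the level of their messenger.

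The nuclear partners of these genes had smaller median changes in each of the 6 pairs. Of the nuclear genes for subunits of complexes I to V, 51 of the 61 listed were matched and 49 tested. In PB over LDM 12 were higher and 1 lower, with a median log2 change of 0.14 and 0.80 at the highest. In HM over LDM 14 were higher and none lower (median 0.25), and in TM over LDM 13 were higher and none lower (median 0.21). In PB over HM 1 was higher and 2 lower (median -0.12), in PB over TM 2 were higher and 3 lower (median -0.10), and in HM over TM none passed. Of all genes, the shares called higher stand above, and those called lower were 21.2% in PB over LDM, 16% in HM over LDM, 13.4% in TM over LDM, 14.1% in PB over HM, 9.69% in PB over TM and 0.41% in HM over TM. The medians of all genes lay between -0.06 and 0.08.

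Some of these nuclear subunits are named by their F test or as set examples. NDUFA4, a small subunit of complex IV, averaged 187 ± 25.4 CPM in PB, 194 ± 30.2 in HM, 211 ± 30.5 in TM and 130 ± 25.9 in LDM. It was higher in PB over LDM by 0.64 ± 0.11 (edgeR adjusted p = 1.82e-05), in HM over LDM by 0.54 ± 0.11 and in TM over LDM by 0.59 ± 0.11, while PB over HM was 0.10 ± 0.11 and did not pass. NDUFA5, a matrix-arm subunit of complex I, was higher in PB than in each other cut, at 0.80 ± 0.17 in PB over LDM, 0.59 ± 0.17 in PB over TM and 0.45 ± 0.17 in PB over HM (adjusted p = 0.0474). NDUFS1, the largest complex I subunit, was higher by 0.57 ± 0.14 in PB over LDM and by 0.37 ± 0.14 in HM over LDM. Its change in TM over LDM (0.31 ± 0.14) did not pass. ATP5ME, a membrane subunit of the ATP synthase, was higher by 0.65 ± 0.15 in PB over LDM, by 0.93 ± 0.15 in HM over LDM and by 0.62 ± 0.15 in TM over LDM. ATP5F1B, the catalytic beta subunit of that enzyme, was at -0.04 ± 0.14 in PB over LDM and passed in no pair. The row named COX4I1 held 0.684 ± 0.386 CPM in PB and 0.586 ± 0.358 CPM in LDM, too few counts to compare it with the mitochondrial subunits of complex IV. It is nonetheless among the 13 nuclear subunits counted as higher in TM over LDM (0.94 ± 0.34, edgeR adjusted p = 0.0391), at 1.18 CPM in TM.

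Of 21 tested genes for copying and transcribing mitochondrial DNA, 6 were higher and 5 lower in PB over LDM (median -0.17), where 20.5% of all genes were called higher and 21.2% lower, and 10 did not pass. There were 4 higher and 3 lower in PB over HM, beside 13.5% and 14.1% of all genes, and in PB over TM 3 were higher and 1 lower, beside 13.4% and 9.69%. In HM over LDM none was higher and 2 lower, beside 16.5% and 16%, and in TM over LDM 1 was higher and 2 lower, beside 11.3% and 13.4%. Counts near the shares of all genes are no result about a list, and single genes are given for their own values. TFAM, which packages mitochondrial DNA and starts its transcription, averaged 25.5 ± 6.97 CPM in PB, 19.6 ± 5.07 in HM, 18.7 ± 8.51 in TM and 18.9 ± 6.81 in LDM. It was higher by 0.56 ± 0.19 in PB over LDM (edgeR adjusted p = 0.0183) and by 0.53 ± 0.19 in PB over HM (adjusted p = 0.0355). POLRMT, the mitochondrial RNA polymerase, averaged 36.5 ± 7.37 CPM in PB, 61.9 ± 12.1 in HM, 58.7 ± 10.5 in TM and 54.6 ± 10.8 in LDM, and was lower in PB over LDM (-0.46 ± 0.13, adjusted p = 0.00527) and in PB over HM (-0.61 ± 0.13, adjusted p = 0.000689). POLG, the catalytic subunit of the DNA polymerase, was lower in PB over LDM (-0.42 ± 0.12), in HM over LDM (-0.55 ± 0.12) and in TM over LDM (-0.32 ± 0.12). MTERF1, a termination factor that binds mitochondrial DNA, and RRM2B, a subunit of the enzyme that makes nucleotides for it, were higher in PB over LDM by 1.14 ± 0.26 and 0.60 ± 0.18.

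Of 41 tested genes for processing, stabilising and translating mitochondrial RNA, 12 were higher and 6 lower in PB over LDM (median 0.21; 20.5% and 21.2% of all genes), and 23 did not pass. Higher in PB over HM were 8, and lower 6 (median 0.06; 13.5% and 14.1% of all genes), and in PB over TM 9 were higher and 5 lower (median 0.01; 13.4% and 9.69%). In HM over LDM 7 were higher and 2 lower (16.5% and 16% of all genes), and in TM over LDM 5 and 2 (11.3% and 13.4%). PNPT1, a polynucleotide phosphorylase that degrades mitochondrial RNA, averaged 14.1 ± 3.46 CPM in PB, 5.28 ± 1.43 in HM, 6.09 ± 2.22 in TM and 4.23 ± 1.93 in LDM, and was higher by 1.85 ± 0.20 in PB over LDM (edgeR adjusted p = 6e-09) and by 1.57 ± 0.20 in PB over HM (adjusted p = 2.9e-07). LRPPRC, which in human and mouse cells holds mitochondrial messengers stable, averaged 138 ± 14.7 CPM in PB, 88.6 ± 17.3 in HM, 92.3 ± 28.2 in TM and 74.8 ± 25.5 in LDM, and was higher by 1.0 ± 0.17 in PB over LDM (adjusted p = 1.23e-05) and by 0.80 ± 0.17 in PB over HM (adjusted p = 0.000484). GFM2, a factor that recycles the mitochondrial ribosome, was higher by 1.14 ± 0.15 in PB over LDM, by 0.42 ± 0.15 in HM over LDM and by 0.55 ± 0.15 in TM over LDM. FASTKD5, which in human cells is needed to free messengers that no transfer RNA borders, averaged 8.95 ± 1.92 CPM in PB, 14.9 ± 2.57 in HM, 13.6 ± 3.48 in TM and 17.2 ± 2.96 in LDM. It was lower in PB over LDM (-0.84 ± 0.12, edgeR adjusted p = 9.91e-07), in PB over HM (-0.60 ± 0.12, adjusted p = 0.000257) and in TM over LDM (-0.47 ± 0.12). The link of any of these genes to the mitochondrial levels was not tested.

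Of 32 tested genes that track the mass and import of mitochondria, 7 were higher and 3 lower in PB over LDM (median 0.00; 20.5% and 21.2% of all genes), and 22 did not pass. In HM over LDM 7 were higher and 1 lower (16.5% and 16% of all genes), and in TM over LDM 5 and 1 (11.3% and 13.4%). In PB over HM 4 were higher and 5 lower (13.5% and 14.1% of all genes), and in PB over TM 4 and 4 (13.4% and 9.69%). CS, the citrate synthase of the matrix, averaged 285 ± 55.3 CPM in PB, 453 ± 148 in HM, 426 ± 101 in TM and 322 ± 65.4 in LDM. It was lower in PB over HM (-0.52 ± 0.16, edgeR adjusted p = 0.0135), higher in HM over LDM by 0.44 ± 0.16 (adjusted p = 0.0316), and at -0.08 ± 0.16 in PB over LDM, which did not pass. VDAC1, the pore of the outer membrane, averaged 662 ± 109 CPM in PB, 711 ± 117 in HM, 751 ± 73.2 in TM and 666 ± 103 in LDM and passed in no pair. OPA1, which fuses inner membranes, was higher by 1.40 ± 0.22 in PB over LDM and by 1.10 ± 0.22 in PB over HM. TOMM22, a receptor of the import pore, was lower in PB over LDM (-0.61 ± 0.08), in HM over LDM (-0.50 ± 0.08) and in TM over LDM (-0.42 ± 0.08). PPARGC1A, a coactivator of mitochondrial genes, ranged from 24.5 to 378 CPM in PB and from 10.7 to 231 CPM in LDM and passed in no pair. ESRRA, a nuclear receptor it works with, was higher in TM over LDM by 1.52 ± 0.26 and in HM over LDM by 0.72 ± 0.26. It was at 0.15 ± 0.26 in PB over LDM.

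Slow-fibre genes passed only in the pairs with LDM. Of the 12 listed, 10 were matched and tested. All 10 were higher in PB over LDM (median 1.56), in HM over LDM (median 1.60) and in TM over LDM (median 1.94). Of all genes, 20.5%, 16.5% and 11.3% were called higher in these pairs, in that order. None of the 10 passed in PB over HM (median 0.04), in PB over TM (median -0.37) or in HM over TM (median -0.37). In PB over HM 13.5% of all genes were called higher and 14.1% lower, and in PB over TM 13.4% and 9.69%. In HM over TM these shares were 0.359% and 0.41%, so the lack of calls there is near the share of all genes and no result about the list. MYH7, the slow myosin heavy chain, averaged 24546 ± 7977 CPM in PB, 24380 ± 10974 in HM, 36217 ± 18799 in TM and 8887 ± 3159 in LDM. ATP2A2, the slow-fibre calcium pump, was higher by 1.78 ± 0.29 in PB over LDM, 1.27 ± 0.28 in HM over LDM and 2.18 ± 0.29 in TM over LDM. MYL2 and TPM3, the slow light chain and slow tropomyosin, were higher in PB over LDM by 1.95 ± 0.32 and 1.70 ± 0.27. Over LDM, the median change of the mitochondrial genes was highest in PB (2.21) and that of the slow-fibre genes in TM (1.94). Whether the fibre mix accounts for a part of the mitochondrial differences was not tested.

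**Figure D5:**
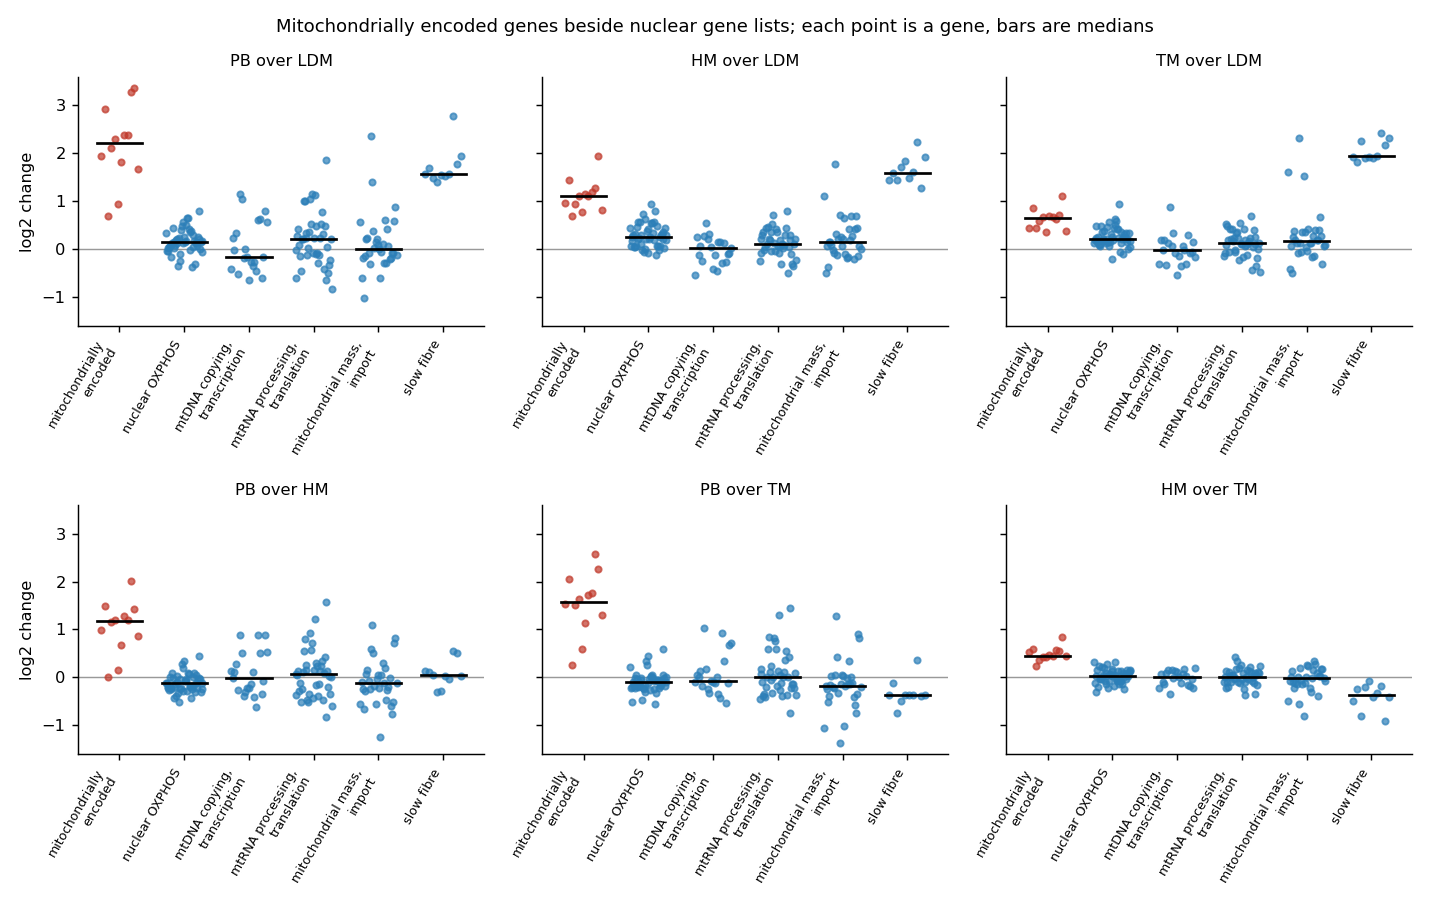
Fitted log2 change (vertical axis) of each tested gene of the mitochondrially encoded set (red) and of 5 nuclear lists (blue) in the 6 pairs of cuts; each point is a gene, and bars are medians. In PB over LDM the mitochondrial median is 2.21 beside 0.14 for nuclear subunits and 1.56 for slow-fibre genes, and in PB over HM it is 1.18 beside -0.12 and 0.04.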

How the data were processed

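RNA was sequenced in 40 libraries, 10 from each of 4 cuts. Build Sscrofa11.1 and the tools HISAT2 2.0.5, HTSeq 0.9.1 and cutadapt 1.15 are named in the submitters' processing notes, with no settings. The deposited table gives a whole-number read count per gene and library, per the file headers, and the authors' FPKM, which equalled the count scaled by gene length and library total for 100% of counts above 0 (relative tolerance 0.001). There were 0 lines that name no gene. Rows with chromosome MT were taken as members; all 13 matched the reference gene table of the same build by name and span.

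Counts entered edgeR 4.0.16 (R 4.3.3) with TMM scaling and the filterByExpr filter by cut, which kept 11713 genes. A robust quasi-likelihood model with cut as its single factor was fitted to the 40 libraries together. The 6 pairs were contrasts, and Benjamini-Hochberg adjusted p-values over the genes tested were held to 0.05. The fit was tested on simulated data. CPM values use library totals and log2 changes use TMM, whose factors averaged 0.922 in PB, 1.02 in HM, 1.09 in TM and 0.993 in LDM. No 2 libraries of a cut agreed within counting noise (lowest chi-square per gene 29.8). Shares have exact 95% binomial intervals, for counting error only.

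Alternatives were RLE and upper-quartile scaling, mitochondrial genes taken out before scaling, no filter, a floor of 1 CPM in 10 libraries, a block for library number, each pair fitted alone, limma-voom with quality weights (limma 3.58.1), the Wald test of DESeq2 1.42.0, and each library left out in turn. Leaving out HM9 and TM7 together was added after the data were seen. The members and gene lists were chosen with earlier results of these data known. Named genes are all members, the 3 genes of each list with the smallest F test p, and 11 set examples.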

Additional observations from a re-analysis of the deposited data

Results flagged for a closer look

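A single library stood far from the other 9 of its cut in 7 of 100 groups of values examined. A group was a gene in a cut, as CPM or as part of the mitochondrial counts, or the summed share in a cut. Chance gives about 1 in 20, though the groups share libraries and are not independent. For COX2, PB9 had 16769 CPM while the other PB libraries lay between 8249 and 11771 CPM, and TM6 had 9591 CPM while the other TM libraries lay between 2854 and 5687 CPM. For ATP6, TM6 had 7258 CPM, against 2360 to 4835 CPM in the rest of TM. As a part of the mitochondrial counts, ND4L took 0.207% in PB4, against 0.0966% to 0.150% in the rest of PB, and 0.153% in HM5, against 0.0602% to 0.107% in the rest of HM. ND2 took 3.18% in HM9, against 2.0% to 2.61% in the rest of HM. ND5 took 4.41% in TM8, against 1.70% to 2.97% in the rest of TM.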

How the results depend on the processing

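Over 10 alternatives and 40 fits without 1 library, the counts of mitochondrial genes called higher in PB over LDM (12), HM over LDM (12) and PB over TM (11) did not change, nor did any sign in these pairs. In PB over HM the count was 10 in all but limma-voom (9). In TM over LDM it was 11, and 10 to 12 over the alternatives: ND1 passed with the replicate block (0.43, adjusted p = 0.032), DESeq2, upper-quartile scaling, the 1 CPM filter and without HM9 and TM7, and CYTB was lost with no filter, with the pair fitted alone and with limma-voom. Over single libraries left out it ran from 7 (without TM9) to 12. There CYTB was lost without HM4, HM7, TM3, TM6, TM7, TM9, TM10, LDM1, LDM3, LDM5, LDM6, LDM8 or LDM9, COX3 without TM5, TM6, TM9, TM10, LDM3, LDM6 or LDM8, COX1 without TM9 or LDM8 and ND5 without TM9, while ND1 was gained without any of 9. In HM over TM it was 0 in the reported fit, 1 with the replicate block (ND4, 0.62, adjusted p = 0.0449), 7 with limma-voom and 2 with DESeq2. The library numbers were not counted as pairs, since the labels do not say what they mark. Of 60 correlations between same-numbered libraries 52 were over 0.1 and the lowest was -0.13. Of 40 libraries 28 correlated best with their own number, a pattern from the data and not the design. The reported fit leaves this pattern out. In HM over TM 213 of all genes tested passed with the block, against 90 without it. With the block, 10 nuclear subunits passed in PB over HM, against 3 without it. When scaling ignored the mitochondrial genes, 63.1% of all calls in PB over HM were higher, against 49.0%, and 71.4% in PB over TM, against 58.0%; with upper-quartile scaling 56.9% were in TM over LDM, against 45.7%, and 47.3% in PB over TM. Leaving out ribosomal RNA was not run, since all 13 genes are protein-coding.

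Without COX1 the share of counts differed between HM and LDM by 2.68 points, against 4.15. Over single libraries left out the shares differed by 7.11 to 7.88 points in PB minus LDM, 3.99 to 4.45 in HM minus LDM, 2.12 to 2.80 in TM minus LDM, 2.96 to 3.72 in PB minus HM, 4.55 to 5.40 in PB minus TM and 1.36 to 2.04 in HM minus TM.

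Counts for the lists moved in these settings: with upper-quartile scaling, DNA copying genes in TM over LDM to 1 (from 3) and import genes in PB over TM to 13 (from 8); with no filter, nuclear subunits in PB over HM to 1 (from 3) and RNA processing genes there to 9 (from 14); with limma-voom, nuclear subunits in HM over LDM to 26 (from 14) and in PB over HM to 6. Leaving out 1 library, the count of nuclear subunits ran from 11 to 23 (without LDM7) in HM over LDM, from 7 (without TM9; 8 without TM2, TM10, LDM2, LDM3, LDM4 or LDM8) to 15 in TM over LDM, from 1 (without PB1, HM5 or HM10) to 4 in PB over HM and from 2 (without TM5; 3 without HM7, HM9 or LDM1) to 6 in PB over TM. For DNA copying genes it ran from 0 (without TM3 or LDM6; 1 without TM5, TM8, TM10 or LDM7) to 4 in TM over LDM and from 4 (without HM5, HM8 or HM10) to 7 in PB over HM. For RNA processing genes it ran from 5 (without HM7 or LDM8) to 11 in HM over LDM and from 9 (without PB10) to 16 in PB over HM. For import genes it ran from 4 (without LDM8; 5 without HM4, HM7, HM8, TM5, TM8, LDM1 or LDM3) to 10 in HM over LDM, and for slow-fibre genes from 0 to 1 (without TM7) in HM over TM.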

Other observations

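ND4 took a larger part of the mitochondrial counts in the libraries numbered 8, 9 and 10, a pattern chosen after its values were seen. In PB these had 15.2%, 14.99% and 15.2%, against 11.6% to 14.6% in numbers 1 to 7. In TM they had 11.4%, 9.28% and 11.02%, against 5.75% to 7.08%, and in LDM 10.8%, 8.83% and 9.03%, against 4.77% to 7.70%. In HM the ranges met, at 10.7%, 9.95% and 9.66%, against 6.62% to 10.4%. An F test of the library number in the fit with the number as a block gave ND4 an adjusted p of 0.0792, and 0 of the 12 tested mitochondrial genes passed, against 19.4% of all genes. That test was on TMM-scaled levels over all numbers. It did not test the part of the mitochondrial counts, nor numbers 8 to 10 against the rest. What the numbers stand for is not given in the labels.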
